A study of Mus musculus with 16 samples.

Results

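The genes of the oxidative phosphorylation machinery were followed in whole adrenal glands of mice treated with an antibody that depletes macrophages or with a control antibody. Members were chosen by name from the 51912 genes of the deposited count tables: symbols starting with Nduf followed by a, b, c, s or v, the Sdh genes a to d, Uqcr, Cox4 to Cox8 and Atp5, and the protein genes of mitochondrial DNA. After 8 pseudogene symbols ending in -ps were left out, 110 genes remained, 97 in the nucleus and 13 in mitochondrial DNA. The name rule also took in 8 complex I assembly factors (Ndufaf genes), 8 tissue isoforms and 4 genes that are copies of another subunit gene. Of the 110 genes, 106 had enough counts to be tested, among 16654 genes tested in all. The 4 that did not were Cox7b2 with 3 fragments over all libraries, Cox6c2 with 109, and Cox8c and Ndufa11b with 0.

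The mice were wild-type C57Bl/6 J animals of 7 weeks, 4 in each of 4 groups. Males and females received either the anti-CD115 antibody AFS98, which depletes macrophages that carry the receptor of colony stimulating factor 1, or the isotype antibody 2A3. Each dose was 500 µg into the peritoneum, given again after 2 days, and both adrenal glands of a mouse were collected 16 h after the second dose. All 4 groups were thus injected with an antibody. CD115 is found on other mononuclear phagocytes too, and a whole gland holds cortex, medulla, vessels and any fat left on the capsule, so in these bulk libraries fewer cells of a type and less RNA per cell cannot be told apart.

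Oxidative phosphorylation takes place in the inner mitochondrial membrane. Complexes I and II pass electrons from NADH and succinate to coenzyme Q, complex III passes them to cytochrome c, complex IV reduces oxygen, and complex V makes ATP from the proton gradient that I, III and IV build. Complex II is made of nuclear gene products alone, whereas the others combine nuclear subunits with subunits encoded by mitochondrial DNA. Adrenocortical cells are rich in mitochondria, since the first and last steps of corticosteroid synthesis occur there.

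Each library held between 23196317 and 26314672 fragments assigned to genes, and the smallest was male anti-CD115 replicate 1. Levels are given in CPM, the fragments of a gene relative to all fragments counted in a library, after scaling of library sizes by edgeR's TMM factors. Csf1r, which encodes CD115, stood at 55.6, 60.8, 62.6 and 61.0 CPM in the male isotype mice against 8.36, 9.53, 6.88 and 8.24 CPM in the male anti-CD115 mice. In females the levels were 50.7, 57.0, 43.1 and 41.5 CPM against 10.03, 4.97, 6.32 and 6.15 CPM. The groups did not overlap in either sex, with log2 fold changes of -2.86 ± 0.16 (SE) in males and -2.81 ± 0.16 in females, and the edgeR adjusted p was 5.26e-10 and 1.98e-09. Of 12 macrophage markers, 12 fell in males and 11 in females. Markers of the adrenal cortex defined the tissue in all 16 libraries, with Star, the cholesterol importer of steroid synthesis, between 7743 and 11892 CPM.

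One library stood apart before any comparison of the members. Male anti-CD115 replicate 1 also had the lowest TMM factor, 0.856, and held 293 CPM of Ucp1, the uncoupling protein of brown adipocytes, whereas the other 15 mice ranged from 0.157 to 56.9 CPM. The brown adipocyte gene Cidea was at 266 CPM against 0.119 to 32.1 CPM. All 17 adipocyte markers together summed to 8441 CPM in this mouse and to at most 2584 CPM in any other. The most abundant of them was Car3, at 2076 CPM in replicate 1, and no adipocyte marker was at 0 in any mouse. The 12 brown adipocyte markers summed to between 2589 and 4002 CPM without setting this mouse apart, because 2449.6 to 3982 CPM of each sum was Kcnk3, a potassium channel that adrenocortical cells also express. A smaller irregularity was seen in male anti-CD115 replicate 4, where the X-zone genes Akr1c18 and Pik3c2g summed to 18.4 CPM, against at most 0.194 CPM in the other males and 765 to 1451 CPM in females. Results are therefore given with and without replicate 1. The numbers of the deposited libraries run in order through the anti-CD115 mice and then the isotype mice. Within each treatment they run through the males and then the females. Neither treatment nor sex within a treatment can therefore be separated from that order.

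Promoters of nuclear respiratory genes are known for sites of NRF1, GABP and YY1, and 4 promoters of members that rose after anti-CD115 in males are shown as examples of what they hold. They come from RefSeq (GRCm38.p6), span 250 bases before to 50 after the start of transcription, and run 5′ to 3′ on the strand of the gene. Capitals mark the NRF1 core GCGCATGC, the ETS core CCGGAAG bound by GABP, and the YY1 core AAGATGGC, each searched on both strands. Uqcrc1, a core protein of complex III, holds the NRF1 core on both strands at overlapping places, Ndufs3 holds the ETS core at 2 places, one on each strand, Ndufs4 holds the YY1 core, and Ndufv2, which carries an iron-sulfur cluster of complex I, holds none of them. No matches of different motifs overlap in these 4 promoters.
Uqcrc1, chr9:108936398-108936697, plus strand: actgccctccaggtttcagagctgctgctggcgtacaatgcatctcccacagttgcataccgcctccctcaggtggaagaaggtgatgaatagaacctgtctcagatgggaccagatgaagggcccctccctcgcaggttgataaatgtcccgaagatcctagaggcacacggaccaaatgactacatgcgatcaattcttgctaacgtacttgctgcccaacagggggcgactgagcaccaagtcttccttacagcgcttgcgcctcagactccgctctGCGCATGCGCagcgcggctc
Ndufs3, chr2:90904672-90904971, minus strand: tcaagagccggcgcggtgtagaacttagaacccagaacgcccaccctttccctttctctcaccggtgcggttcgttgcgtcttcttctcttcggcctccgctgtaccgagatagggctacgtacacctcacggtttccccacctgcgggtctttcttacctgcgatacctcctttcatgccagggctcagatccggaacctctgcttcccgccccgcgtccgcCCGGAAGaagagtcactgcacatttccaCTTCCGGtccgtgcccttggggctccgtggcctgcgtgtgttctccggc
Ndufs4, chr13:114388045-114388344, minus strand: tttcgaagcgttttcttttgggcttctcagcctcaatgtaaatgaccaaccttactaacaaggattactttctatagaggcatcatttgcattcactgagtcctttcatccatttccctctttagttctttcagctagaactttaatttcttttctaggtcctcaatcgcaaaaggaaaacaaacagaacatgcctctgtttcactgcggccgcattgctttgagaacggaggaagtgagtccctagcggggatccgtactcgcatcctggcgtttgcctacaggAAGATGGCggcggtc
Ndufv2, chr17:66101510-66101809, minus strand: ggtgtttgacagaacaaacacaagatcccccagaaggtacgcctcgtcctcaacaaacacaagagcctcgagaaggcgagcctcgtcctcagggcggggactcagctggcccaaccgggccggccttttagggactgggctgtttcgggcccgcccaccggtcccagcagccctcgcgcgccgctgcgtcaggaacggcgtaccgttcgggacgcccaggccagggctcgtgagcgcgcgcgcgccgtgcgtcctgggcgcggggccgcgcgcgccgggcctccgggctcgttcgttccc

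RefSeq promoters were matched to 76 of the 97 nuclear members, 81 promoters in all. The NRF1 core was present in 12 of these promoters (14.8%) against 2.71% of all 32851 promoters, the ETS core in 18 (22.2%) against 8.86%, and the YY1 core in 11 (13.6%) against 2.75%. The ERR element TCAAGGTCA was found in 2 (2.47%) against 0.423%, and the TATA box TATAAA in 8 (9.88%) against 13.6%. Among the 16 members higher in males, promoters of 12 were read and 6 of these held at least 1 of the motifs. The share of all promoters with at least 1 motif was not counted. Promoters of Cox4i1, Cox6c, Ndufa2 and Ndufb9 were not among the 12. A match of letters is a description of the window and not a site of binding.

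Per kilobase of exon, 8 of the 13 mitochondrial genes had higher mean levels than any nuclear member, and the other 5 lay lower. The cytochrome oxidase subunit mt-Co1 averaged 29434 CPM per kb (range 22557 to 56959) over the 16 mice, mt-Nd1 22609.6 CPM per kb (range 17201 to 41436) and mt-Cytb 18520.5 CPM per kb (range 13892 to 39293). At the low end, mt-Nd6 at 10.1 CPM per kb (range 3.95 to 20.8) and mt-Atp8 at 14.8 CPM per kb (range 4.84 to 103) were on average below the median nuclear member of every complex, and mt-Co3 at 489 CPM per kb (range 251 to 959), mt-Nd4l at 356 CPM per kb (range 173 to 763) and mt-Nd3 at 102 CPM per kb (range 64.7 to 188) lay below Cox6a1 and Cox8a in their means. The nuclear members with the highest mean in each complex were Ndufa6 in complex I at 243 CPM per kb (range 169 to 330.3), the iron-sulfur protein Sdhb in complex II at 89.8 CPM per kb (range 72.0 to 128), and Uqcr11 in complex III at 264 CPM per kb (range 185 to 463). In complex IV it was Cox6a1 at 697 CPM per kb (range 475 to 1272), and in complex V the alpha subunit of the catalytic head, Atp5a1, at 253 CPM per kb (range 222 to 285). The ranges of Sdhb and Sdha, at 87.0 CPM per kb (range 72.0 to 102), overlapped, as did those of Cox6a1 and Cox8a, at 685 CPM per kb (range 525 to 1327). The same holds for Ndufa6 and Ndufb11, at 169.9 CPM per kb (range 111 to 231), for Uqcr11 and Uqcr10, at 213 CPM per kb (range 163 to 381), and for Atp5a1 and Atp5b, at 230.5 CPM per kb (range 189.6 to 303), and each leader was set against its neighbour within the same mouse. Uqcr11 was above Uqcr10 in 16 of 16 mice, Ndufa6 above Ndufb11 in 15 and Atp5a1 above Atp5b in 13, whereas Cox6a1 was above Cox8a in 9 and Sdhb above Sdha in 8, so these latter pairs cannot be ordered. The median nuclear member of complexes I to V stood at 42.5, 67.9, 82.7, 60.9 and 45.0 CPM per kb. The exonic length joins all annotated transcripts of a gene, which lowers the value of a gene where part of that length is rarely used. Ndufb2, with 5628 bases, stood at 1.84 CPM per kb (range 1.32 to 2.61), and the use of its exons was not tested.

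Fragments that also aligned elsewhere in the genome were not counted, and the nuclear genome carries copies of parts of mitochondrial DNA. Of all stretches of 100 bases in the transcript, 99.9% of mt-Co3, 99.5% of mt-Co2 and mt-Atp6, 98.5% of mt-Nd4l, 97.6% of mt-Nd3 and 60.8% of mt-Nd4 also occurred in a transcript of another gene. For mt-Co1 the share was 30.8%, and the remaining 6 of the 13 genes were under 5%. The gene mt-Co3 was assigned 154887 fragments over the 16 libraries and mt-Nd3 14314, against 18414008 for mt-Co1 and 8756004 for mt-Nd1. With none of their stretches shared, mt-Atp8 had 1137 fragments and mt-Nd6 2129, and mt-Nd4, with most of its stretches shared, had 5316056. The part of shared sequence in these counts was not tested. A stretch of 60 bases where the copy Gm29216 starts is shown for mt-Co1 (bases 1054 to 1113 of its transcript, counted from 1 at the 5′ end, GENCODE vM21), with the differing bases in capitals.
mt-Co1: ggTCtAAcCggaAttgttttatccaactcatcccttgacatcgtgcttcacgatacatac
Gm29216: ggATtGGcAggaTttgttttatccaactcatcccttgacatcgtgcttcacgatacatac
The differences, with the base of mt-Co1 first, were T1056A, C1057T, A1059G, A1060G, C1062A and A1066T, and they were all the differences over the 492 bases of the copy (98.8% identity). Fragments that lay wholly in the identical part had no place of their own. Levels of mt-Co2, mt-Co3, mt-Atp6, mt-Nd3, mt-Nd4l and mt-Nd4 are therefore uncertain, as is that part of mt-Co1, and mt-Atp8 shares 21.1% of its bases with mt-Atp6 on the same strand. Among nuclear members, Ndufb4c lay wholly within Ndufb4 sequence, and the other nuclear members with over 10% of their stretches in other genes were Cox6c2 (34.8%), Ndufb4 (33.4%), Ndufs3 (19.9%), Ndufs5 (19.8%), Cox7c (19.7%), Ndufb9 (17%) and Atp5h (16.2%).

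The summed level of the 97 nuclear members was 9903, 9475, 10263 and 9892 CPM in male isotype mice and 17393, 10907, 11804.5 and 11163 CPM in male anti-CD115 mice. It was 9841, 11317, 11242 and 10973 CPM in female isotype mice and 12088, 11731, 11706 and 12083 CPM in female anti-CD115 mice. On this TMM-scaled level every anti-CD115 mouse was above every isotype mouse in both sexes, and male replicate 1 was by far the highest. As a share of all assigned fragments, without that scaling, the nuclear members took 1.00, 1.01, 1.04 and 1.01% in male isotype mice and 1.49, 1.12, 1.15 and 1.16% in male anti-CD115 mice, which did not overlap. In females the shares were 1.04, 1.09, 1.15 and 1.12% under isotype and 1.16, 1.205, 1.14 and 1.18% after anti-CD115, and there the groups overlapped, through anti-CD115 replicate 3 and isotype replicate 3. The 13 mitochondrial genes summed to 137811, 110893, 110918 and 146969 CPM in male isotype mice, 254289, 120101, 145420.0 and 123277 CPM in male anti-CD115 mice, 109543, 120438, 136351 and 125691 CPM in female isotype mice and 127101, 115331, 131508 and 133965 CPM in female anti-CD115 mice. Here the treatment groups overlapped in both sexes, with and without male replicate 1. The share of all assigned fragments that fell on the 13 genes was 21.8% in that mouse and 11.3% to 14.99% in the others. The ratio of mitochondrial to nuclear sums averaged 12.8 ± 1.88 (SD, n = 4), 12.2 ± 1.69, 11.3 ± 0.624 and 10.7 ± 0.638 in the same order of groups.

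**Figure D1:**
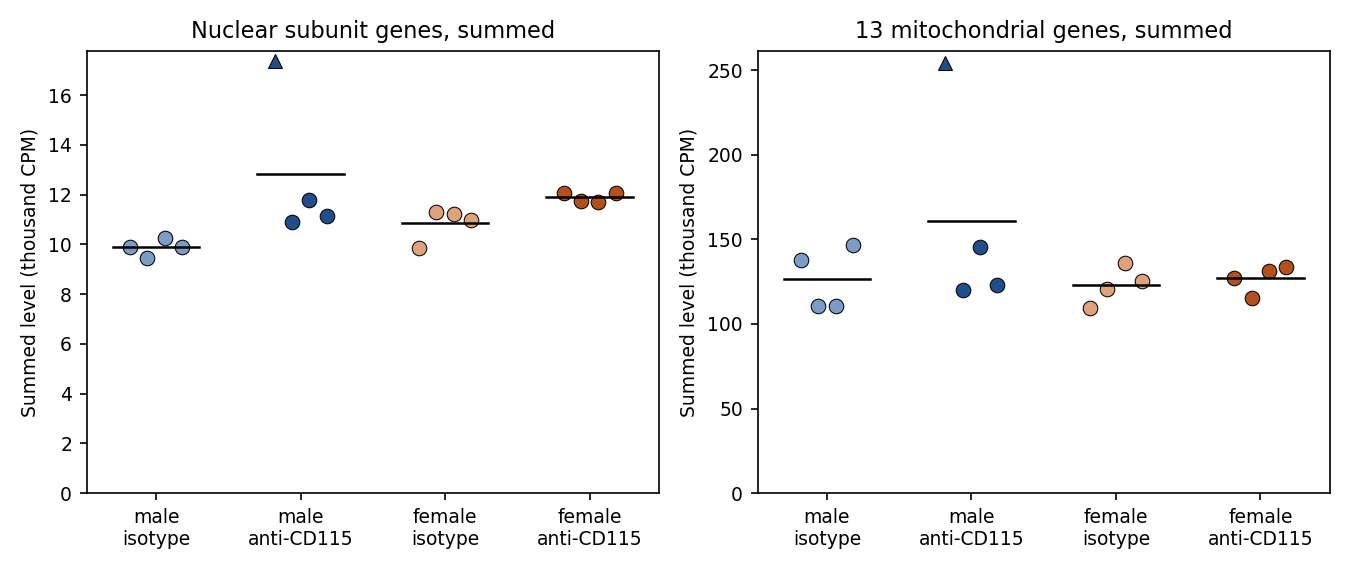
Summed level of the 97 nuclear genes (left) and the 13 mitochondrial genes (right) in units of 1000 CPM for each of the 16 mice, with points for mice, a triangle for male anti-CD115 replicate 1 and a line for the group mean; both axes start at 0. On this scale nuclear sums of the anti-CD115 mice lie above those of the isotype mice in both sexes, although the female groups overlap as a share of assigned fragments, and the triangle lies at 17393 and 254289 CPM.

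Of the 93 nuclear members tested, 16 rose after anti-CD115 in males and 0 fell (edgeR quasi-likelihood test, adjusted p under 0.05 over all genes tested). Of all tested genes 1.10% were called higher in males and 3.06% lower. The median log2 fold change of the nuclear members was 0.41, against 0.01 for all tested genes, and 91 of 93 were above 0. In 35 of them the 4 anti-CD115 mice were all above the 4 isotype mice, which held for 4.65% of all tested genes. By complex, 8 of 46 tested members of complex I rose (median 0.40), 0 of 4 of complex II (median 0.33), 1 of 8 of complex III (median 0.47), 3 of 18 of complex IV (median 0.52) and 4 of 17 of complex V (median 0.33). The 16 genes were Ndufa2, Ndufb5, Ndufb9, Ndufc2, Ndufs3, Ndufs4, Ndufs6 and Ndufv2 of complex I, Uqcrc1 of complex III, Cox4i1, Cox6c and Cox7a2 of complex IV, and Atp5c1, Atp5h, Atp5j2 and Atp5o of complex V. Within complex I, 2 of 7 nuclear core subunits and 6 of 29 accessory subunits rose, and 0 of the 8 Ndufaf assembly factors, whose median was 0.14.

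The 5 with the smallest p were Ndufc2, Ndufv2, Atp5h, Ndufa2 and Cox4i1. Ndufc2, an accessory subunit of the membrane arm of complex I (chr7:97400003-97407802, plus strand, GRCm38), stood at 89.7, 86.9, 88.2 and 76.4 CPM in male isotype mice and 159, 108, 108 and 105 CPM in male anti-CD115 mice. The groups did not overlap, and the log2 fold change was 0.49 ± 0.12 (SE, edgeR adjusted p = 0.0181). Ndufv2, a core subunit of the electron input module of complex I (chr17:66078795-66101559, minus strand), was at 99.96, 100.2, 100.4 and 123 CPM against 212, 129, 149 and 128 CPM, with a log2 fold change of 0.54 ± 0.13 (edgeR adjusted p = 0.0198). Again all 4 anti-CD115 mice were above the isotype mice, although isotype replicate 4 came close. Atp5h, a subunit of the peripheral stalk of ATP synthase (chr11:115415689-115419962, minus strand), was at 90.9, 89.4, 104 and 101 CPM against 177, 109, 128 and 124 CPM and changed by 0.48 ± 0.12 on the log2 scale (edgeR adjusted p = 0.0201). Ndufa2, an accessory subunit of complex I (chr18:36742332-36744557, minus strand), was at 39.9, 36.1, 40.8 and 37.2 CPM against 68.3, 47.1, 55.4 and 47.0 CPM, a log2 change of 0.50 ± 0.12 (edgeR adjusted p = 0.0247). Cox4i1, the main form of the subunit that tunes complex IV to ATP (chr8:120668222-120674207, plus strand), was at 242, 234, 282 and 243 CPM against 506, 294, 317 and 332 CPM, a log2 change of 0.53 ± 0.13 (edgeR adjusted p = 0.0251). In each of the 5 genes replicate 1 was the highest of the anti-CD115 mice and the other 3 mice lay between it and the isotype mice. The other 11 genes had edgeR adjusted p between 0.0255 and 0.0494, so the calls in males lie close to the threshold. The member just outside it was Ndufa4, now placed in complex IV, at 0.57 ± 0.16 and an edgeR adjusted p of 0.0505. In 14 of the 16 genes the groups did not overlap, and Ndufs6 and Ndufb5 were the exceptions.

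Further values show the range within each complex. Ndufs4, an accessory subunit needed for a stable complex I (chr13:114287795-114388094, minus strand), was at 30.3, 30.8, 33.1 and 30.7 CPM in male isotype mice and 56.8, 38.4, 39.7 and 39.3 CPM in male anti-CD115 mice, a narrow isotype group with all treated mice above it (0.48 ± 0.12, edgeR adjusted p = 0.0255). Its levels in females were 30.9, 35.1, 39.4 and 30.2 CPM against 36.3, 31.7, 34.6 and 37.1 CPM, with overlap. Ndufs6 had the largest log2 fold change of the 16 genes, 0.64 ± 0.17 (edgeR adjusted p = 0.0414), at 28.5, 26.9, 23.7 and 30.9 CPM against 63.7, 30.5, 42.2 and 35.8 CPM. Isotype replicate 4 lay above anti-CD115 replicate 2 there. Uqcrc1 (chr9:108936633-108949623, plus strand) was at 222, 220.1, 239.9 and 228 CPM against 380.4, 252, 283 and 264 CPM (0.37 ± 0.10, edgeR adjusted p = 0.0449), without overlap, while its partner Uqcrc2 differed by 0.30 ± 0.10 (edgeR adjusted p = 0.0937) and overlapped.

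Complex II shares Sdha to Sdhd with the tricarboxylic acid cycle and is the complex without a mitochondrial gene. Sdha, its flavoprotein, was at 326, 320.1, 305 and 313 CPM against 403, 319, 297 and 322 CPM in males, where the treated mice other than replicate 1 lay among or below the isotype mice (0.09 ± 0.09, edgeR adjusted p = 0.624). The membrane anchor Sdhc, at 135, 135, 154 and 146 CPM against 244, 159, 170.4 and 165 CPM, did not overlap and came closest to the threshold (0.37 ± 0.11, edgeR adjusted p = 0.0549). Sdhb and Sdhd differed by 0.29 ± 0.12 and 0.45 ± 0.16 (edgeR adjusted p = 0.173 and 0.123). Sdhb was at 183, 161, 190 and 179 CPM against 287, 195, 219 and 168 CPM. Sdhd was at 53.1, 48.4, 44.5 and 55.2 CPM against 103, 50.5, 51.6 and 70.2 CPM. The groups overlapped for both, and replicate 1 was far above the other treated mice. In females the 4 genes lay between -0.020 and 0.094 on the log2 scale.

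In complex V the 4 genes that rose belong to the central and peripheral stalks and the membrane part. Atp5c1, the gamma subunit of the central stalk, was at 218, 195, 196 and 223 CPM against 308, 243, 258 and 237 CPM in males (0.33 ± 0.09, edgeR adjusted p = 0.0462). Atp5o, which joins the peripheral stalk to the catalytic head, was at 93.0, 100.1, 69.0 and 111 CPM against 180.4, 112, 123 and 125 CPM (0.53 ± 0.14, edgeR adjusted p = 0.0360), and 12.7% of its exonic bases lie in exons of Donson on the same strand. In both, isotype replicate 4 was the control mouse nearest to the treated ones. The catalytic subunits Atp5a1 and Atp5b differed by 0.12 ± 0.09 and 0.24 ± 0.10 (edgeR adjusted p = 0.431 and 0.174). In males the nuclear member of complex V with a log2 difference below 0 was Atp5s, at -0.01 ± 0.13. In females it was at -0.25 ± 0.13, where all 4 treated mice lay below the isotype mice (edgeR adjusted p = 0.558). In females Atp5mpl was below 0 as well, at -0.08 ± 0.18. The other nuclear member below 0 in males was Cox6b2 of complex IV, at -0.25 ± 0.28 (edgeR adjusted p = 0.641).

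Replicate 1 was the highest of all 16 mice in 79 of the 93 nuclear members and in 12 of the 13 mitochondrial ones. The share of all tested genes that were highest in replicate 1 was not counted. Whether these counts are particular to the members is therefore not known. Without replicate 1, 1 nuclear member rose in males, Ndufv2, at a log2 fold change of 0.35 ± 0.10 (edgeR adjusted p = 0.0493), and 0 fell, where 0.652% of all tested genes were called higher and 2.57% lower. The median of the nuclear members was then 0.22, with 90 of 93 above 0. The nuclear sums of complexes I to V in treated males averaged 3895, 806, 1390, 2804 and 3922 CPM with all mice. Without replicate 1 they averaged 3463, 729, 1196, 2296 and 3606 CPM, against 3001, 687, 1021, 1947 and 3228 CPM in isotype males. In 36 members the other 3 anti-CD115 mice were still all above the 4 isotype mice, against 7.02% of all genes. The log2 change of Ndufc2 became 0.32 ± 0.09, that of Atp5h 0.32 ± 0.09, that of Ndufa2 0.37 ± 0.11 and that of Cox4i1 0.32 ± 0.09. Other mice also moved the count of 16, to 0 without male isotype replicate 2, to 2 without male isotype replicate 1 and to 41 without male anti-CD115 replicate 2. The share of all genes called higher moved with it, to 0.195%, 0.484% and 2.13%. It was 25 without male anti-CD115 replicate 4, the mouse with a trace of X-zone RNA (1.08% of all genes). Fitted on the 8 males alone, 0 nuclear members were called (0.234% of all genes higher), and DESeq2 called 32 (2.58%). The adipocyte sum moved with the result in replicate 1, and when a score of adipocyte markers entered the fit, 4 nuclear members were called at a median of 0.34 (1.12% of all genes).

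**Figure D2:**
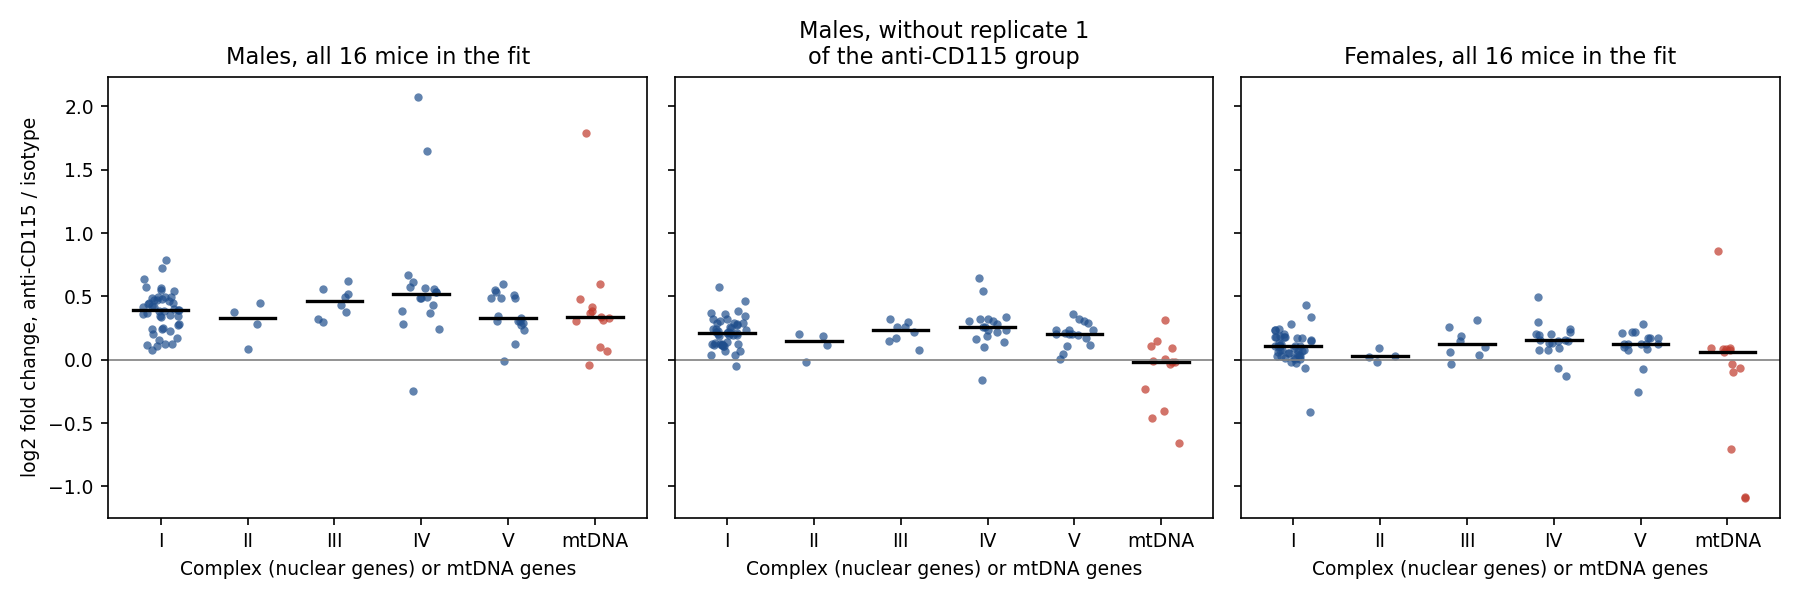
Log2 fold change after anti-CD115 of the tested nuclear members by complex (blue) and of the 13 mitochondrial DNA genes (red), with a line at each median, in males with all mice, in males without anti-CD115 replicate 1, and in females. The nuclear medians stay above 0 in the 3 panels (0.41, 0.22 and 0.12 over all complexes), and the median of the mitochondrial genes is 0.34, -0.02 and 0.06.

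In females, 0 nuclear members were called in either direction by edgeR, where 0.0600% of all genes were called higher and 1.81% lower. At an unadjusted p under 0.05 there were 5 of 93, below the 9.51% of all genes, and DESeq2 called 1 (0.228% of all genes higher). The median log2 fold change was 0.12, against 0.01 for all tested genes, with 83 of 93 above 0. By complex the medians were 0.11 for I, 0.03 for II and 0.13 for III, 0.15 for IV and 0.13 for V. The 4 anti-CD115 mice were all above the isotype mice in 10 members and all below in 1, against 3.37% and 4.17% of all genes. The smallest p belonged to Cox7a2l, a factor that joins complexes III and IV into supercomplexes (chr17:83501919-83514333, minus strand), at 104, 106, 96.2 and 115 CPM in isotype mice and 138, 138, 124 and 119.5 CPM in anti-CD115 mice. The groups did not overlap, and its log2 fold change of 0.30 ± 0.08 did not pass the test (edgeR adjusted p = 0.0794). Ndufb4, an accessory subunit of complex I (chr16:37647170-37654453, minus strand), was at 55.4, 58.6, 73.1 and 73.5 CPM against 94.3, 91.0, 81.9 and 84.6 CPM without overlap, a log2 difference of 0.43 ± 0.15 (edgeR adjusted p = 0.269). The leading genes of males differed less here: the log2 difference of Ndufc2 was 0.18 ± 0.12, that of Ndufv2 0.24 ± 0.13, that of Atp5h 0.17 ± 0.12, that of Ndufa2 0.12 ± 0.12 and that of Cox4i1 0.16 ± 0.13, with edgeR adjusted p of 0.601 or more.

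Averaged over the sexes, 14 nuclear members rose and 0 fell, with 1.53% of all genes called higher and 3.87% lower. The median was 0.26. Cox7a2l led with a log2 fold change of 0.27 ± 0.06 (edgeR adjusted p = 0.00631), followed by Ndufv2 at 0.39 ± 0.09 (0.0132), Ndufb4 at 0.45 ± 0.11 (0.0163), Ndufc2 at 0.34 ± 0.08 (0.0174) and Atp5h at 0.33 ± 0.08 (0.0210). In males Cox7a2l was at 116, 117, 134 and 116 CPM against 144, 135, 143 and 149.9 CPM, so that here replicate 1 was not the highest, and Ndufb4 at 69.3, 56.7, 79.2 and 57.5 CPM against 125, 73.2, 87.5 and 76.7 CPM, where the groups overlapped. Without male replicate 1 the count was 15 higher and 0 lower, with 1.10% of all genes called higher and 4.02% lower, and these 5 genes were among them: the log2 change of Cox7a2l was 0.26 ± 0.06 (edgeR adjusted p = 0.0114) and that of Ndufv2 0.29 ± 0.06 (0.00995). Uqcrh, Ndufs3 and Ndufs6 were among the 14 and the 15 as well. Cox7a2l and Ndufc2 lost the call when the trend of expression with gene length was taken out, at 0.17 ± 0.07 (edgeR adjusted p = 0.188) and 0.22 ± 0.07 (0.108). The count fell to 2 without female isotype replicate 1 and to 3 without male isotype replicate 2, with 0.437% and 0.420% of all genes called higher.

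The difference between the sexes in the response was tested directly. It called 0 members, and 0.00% of all genes, in edgeR and 0 members in DESeq2, with 12 of 93 nuclear members at an unadjusted p under 0.05, against 7.57% of all genes. The smallest adjusted p among members was 0.633, for Ndufs4, a complex I subunit whose response was larger in males by 0.44 ± 0.17 on the log2 scale. Ndufa5 (0.50 ± 0.21) and the core protein Uqcrc2 of complex III (0.33 ± 0.14) followed. With mice left out, the lowest values were 0.29 for Ndufs4, 0.31 for Ndufa5 and 0.21 for Uqcrc2. Over the nuclear members the median difference was 0.29, with 87 of 93 above 0. Without male anti-CD115 replicate 1 it was 0.11 with 73 above 0, and with the length trend removed too -0.02 with 45 above 0. The calls in males and their lack in females therefore do not show that the sexes differ.

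None of the 13 mitochondrial genes was called in males or females by edgeR, and 1 in males and 2 in females had an unadjusted p under 0.05, against 21.4% and 9.51% of all genes. Their medians were 0.34 in males, with 12 of 13 above 0, and 0.06 in females, with 7 of 13 above 0. In males mt-Co1 was at 46281, 39153.5, 38234 and 52536 CPM against 88002, 43679, 51719 and 51789 CPM, a log2 difference of 0.42 ± 0.17 (edgeR adjusted p = 0.169). Cytochrome b (mt-Cytb) was at 22144, 17573, 17843 and 24689 CPM against 44951.5, 19385, 22744 and 19056 CPM, 0.37 ± 0.21 on the log2 scale (edgeR adjusted p = 0.331). For both, replicate 1 lay far above the other anti-CD115 mice, which overlapped the isotype mice. The complex I genes mt-Nd1, mt-Nd2, mt-Nd4 and mt-Nd5 had log2 differences of 0.31 ± 0.20, 0.34 ± 0.23, 0.33 ± 0.20 and 0.07 ± 0.18. Without replicate 1 the median of the 13 was -0.02 with 5 above 0, and mt-Atp8, mt-Cytb, mt-Nd1, mt-Nd3, mt-Nd4, mt-Nd4l and mt-Nd5 turned below 0.

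Among mitochondrial genes with few countable fragments, mt-Nd3 of complex I had the smallest p in females, at 24.2, 23.0, 29.5 and 29.0 CPM against 34.7, 59.5, 55.7 and 42.1 CPM. The groups did not overlap, but the log2 difference of 0.86 ± 0.28 did not pass (edgeR adjusted p = 0.259). It passed without male replicate 1 (0.85 ± 0.19, edgeR adjusted p = 0.0196), a mouse of another group that enters the spread shared by all groups, where 0.0770% of all genes were called higher in females. In males it was at 30.1, 22.5, 24.6 and 39.1 CPM against 65.5, 24.0, 32.1 and 30.8 CPM. In males the log2 differences of the remaining genes were 0.48 ± 0.25 for mt-Co2, 0.60 ± 0.44 for mt-Co3, 0.31 ± 0.38 for mt-Atp6, 1.79 ± 0.98 for mt-Atp8, 0.10 ± 0.42 for mt-Nd4l and -0.04 ± 0.46 for mt-Nd6. For mt-Co2 the male levels were 685, 609, 588 and 821 CPM against 1604, 620, 856 and 694 CPM. For mt-Atp8 they were 1.44, 1.75, 1.70 and 1.78 CPM against 21.1, 1.40, 1.36 and 1.04 CPM. Replicate 1 was far above the other treated mice in both. In females mt-Nd4l stood at 131, 163, 172 and 77.5 CPM against 52.0, 51.4, 69.1 and 84.5 CPM, with overlapping groups and a log2 difference of -1.08 ± 0.43 (edgeR adjusted p = 0.429).

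Several complex IV subunits have a second form that is used in muscle, fat, lung or testis. Per kilobase of exon the general forms had the higher mean level in each pair. Cox6a1 stood at 697 CPM per kb (range 475 to 1272) against 2.90 CPM per kb (range 0.160 to 8.18) for Cox6a2, the form of heart and muscle. Cox4i1 stood at 191 CPM per kb (range 151 to 326) against 7.11 CPM per kb (range 4.23 to 12.3) for Cox4i2, the hypoxia-responsive form, and Cox6b1 at 272 CPM per kb (range 201 to 501) against 2.43 CPM per kb (range 1.09 to 5.77) for Cox6b2, the testis form. Cox7a2 stood at 61.7 CPM per kb (range 47.6 to 91.1) and Cox7a2l at 109 CPM per kb (range 83.9 to 131), against 17.6 CPM per kb (range 6.44 to 76.3) for Cox7a1. Cox8a stood at 685 CPM per kb (range 525 to 1327) against 81.0 CPM per kb (range 17.3 to 571) for Cox8b, and Ndufa4 at 93.2 CPM per kb (range 70.6 to 166) against 60.9 CPM per kb (range 33.2 to 88.0) for Ndufa4l2. The ranges overlapped for Ndufa4 and Ndufa4l2, and for Cox7a2 and Cox8a through male replicate 1 alone. Within the same mouse Ndufa4 was above Ndufa4l2 in 14 of 16 mice, whereas Cox7a2 was above Cox7a1 and Cox8a above Cox8b in 16. Cox7b stood at 54.8 CPM per kb (range 35.0 to 104), while Cox7b2 had 3 fragments in all and Cox8c 0, which allows up to 3 fragments per library, or 0.151 CPM in the smallest library, by counting error alone.

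Cox8b and Cox7a1, forms found in muscle and brown fat, were the nuclear members with the largest log2 difference in males. Cox8b (chr7:140898945-140900446, minus strand) was at 16.3, 18.1, 13.2 and 19.3 CPM in male isotype mice and 205.5, 21.3, 22.1 and 35.3 CPM in male anti-CD115 mice, and Cox7a1 (chr7:30184144-30186078, plus strand) at 4.55, 5.05, 3.44 and 6.24 and 40.8, 5.17, 7.08 and 8.94 CPM. Replicate 1, the library with the high Ucp1, gave most of both differences. The log2 differences were 2.08 ± 0.69 and 1.65 ± 0.56 with edgeR adjusted p of 0.110 and 0.113, and 0.64 ± 0.33 and 0.54 ± 0.22 without it. Among the other 3 treated male mice, Cox8b lay above the isotype mice and Cox7a1 overlapped them. In females Cox8b ranged from 6.23 to 25.1 CPM and Cox7a1 from 6.93 to 12.0 CPM, with overlapping treatment groups. The 14 skeletal muscle markers summed to 1.81 to 5.16 CPM in all mice, with replicate 1 at the low end. Their most abundant gene, Actn3, stood at 0.252 CPM there, and 7 of the 14 were at 0.

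**Figure D3:**
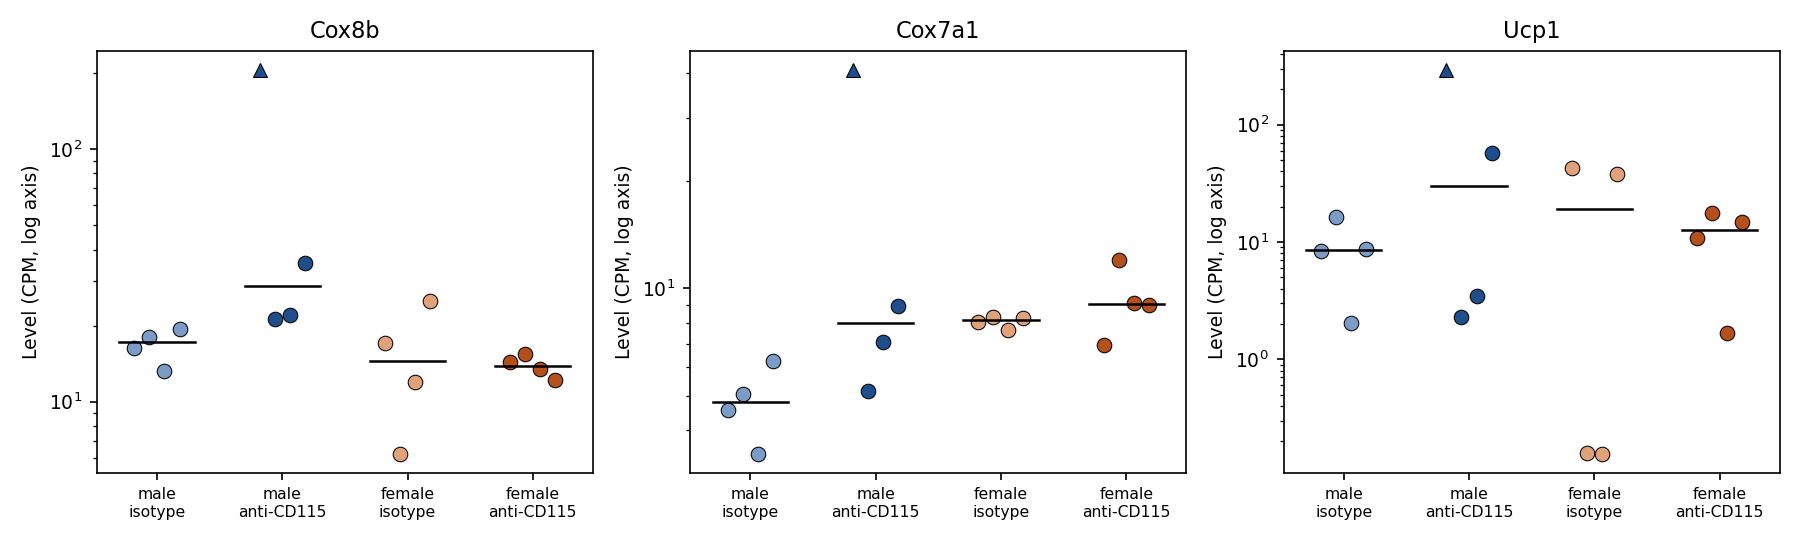
Levels of Cox8b, Cox7a1 and the brown adipocyte gene Ucp1 in each mouse in CPM on log axes, with points for mice, a triangle for male anti-CD115 replicate 1 and a line for the group median. The triangle is the highest point in each panel, at 205.5, 40.8 and 293 CPM.

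Most nuclear members are short genes, and the male comparison varied with gene length. The median exonic length was 1495 bases for the members and 3799 bases for all tested genes, and 81 of 93 members were shorter than the latter. In males, genes other than members had a median log2 difference of 0.27 under 1000 bases, 0.15 from 1000 to under 2000, 0.05 from 2000 to under 4000 and -0.08 from 4000 bases on. The members of the same length classes had medians of 0.49, 0.45, 0.30 and 0.35, thus above the other genes in every class, with 28, 33, 21 and 11 members. The treatment groups overlapped in this respect: relative to the mean of all mice, the median gene under 1000 bases other than members stood at 0.44, 0.13, 0.28 and -0.04 on the log2 scale in male anti-CD115 replicates 1 to 4 and at -0.11, -0.04, -0.21 and 0.09 in the male isotype mice. Replicate 1 was the highest of them, and without it the medians of the male comparison were 0.19, 0.09, 0.03 and -0.07 for the other genes and 0.23, 0.23, 0.14 and 0.21 for the members. In females the other genes had -0.03, 0.04, 0.04 and -0.01 and the members 0.16, 0.13, 0.08 and 0.12. Across genes, which are not independent replicates, Spearman's rho of log2 difference and length was -0.34 for the male comparison and -0.09 for the female one. When the trend with length was taken out of each library, 2 members rose in males (0.654% of all genes called higher), Ndufv2 and Uqcrc1, with a median of 0.26. Averaged over the sexes 6 rose (1.24% of all genes), namely Atp5h, Ndufb4, Ndufs3, Ndufs6, Ndufv2 and Uqcrh. With both the trend and replicate 1 removed, 0 rose in males at a median of 0.11, and the median in females was 0.12.

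**Figure D4:**
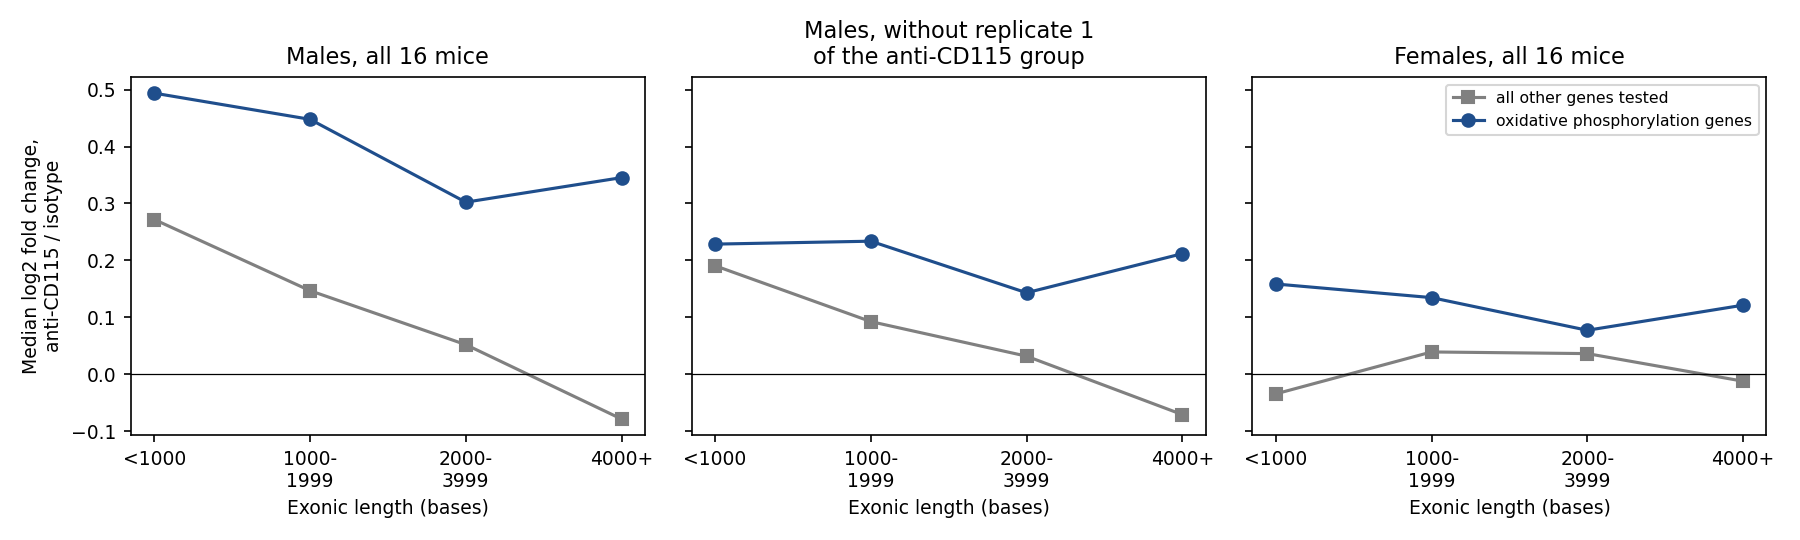
Median log2 fold change after anti-CD115 by exonic length in bases for nuclear oxidative phosphorylation genes (blue circles) and all other tested genes (grey squares), in males with all mice, in males without anti-CD115 replicate 1, and in females. The blue line is above the grey one in each length class and panel, and the grey line falls with length in both male panels but not in females.

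Between the sexes, the members differed in single genes. Under isotype, 3 nuclear members were higher in females and 2 lower, where 8.54% and 10.3% of all tested genes were called. In 11 members all 4 females lay above the males (9.79% of all genes) and in 2 all lay below (10.8%). Cox6a2 (chr7:128205435-128206387, minus strand) was at 0.117, 0.109, 0.341 and 0.310 CPM in male and 2.19, 4.20, 4.16 and 1.75 CPM in female isotype mice, a log2 fold change of 3.78 ± 0.46 (edgeR adjusted p = 3.88e-06). The groups were far apart, at a level of few fragments in males. Ndufa4l2, a relative of the complex IV subunit Ndufa4 that is induced by hypoxia (chr10:127514967-127517154, plus strand), was lower in females, at 74.3, 65.2, 85.7 and 82.1 CPM in males and 36.6, 52.8, 51.5 and 36.3 CPM in females, a log2 change of -0.79 ± 0.12 (edgeR adjusted p = 5.47e-05), again without overlap. The flavoprotein Sdha of complex II (chr13:74322254-74350280, minus strand) was at 326, 320.1, 305 and 313 CPM in males and 394, 394, 347 and 421 CPM in females, 0.30 ± 0.09 on the log2 scale (edgeR adjusted p = 0.0242). Atp5g3, a c-ring gene of ATP synthase, was higher by 0.34 ± 0.10 (edgeR adjusted p = 0.0260) and Cox6b2 changed by -0.95 ± 0.29 (edgeR adjusted p = 0.0275), with overlapping mice in both. The median of the nuclear members was 0.14 and that of the mitochondrial genes 0.10, with 0 of the latter called by edgeR or DESeq2 and 0 at an unadjusted p under 0.05 (30.4% of all genes). Without male anti-CD115 replicate 1, which is in neither of these groups but enters the shared spread, 12 nuclear members were called higher in females and 2 lower, against 9.65% and 11.7% of all genes.

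After anti-CD115, 8 nuclear members were called between the sexes, against 21.5% of all genes in either direction: Cox6a2 was higher in females and the other 7 lower (10.5% of all genes). In 1 member all 4 females lay above the males (12.9% of all genes) and in 10 below (12.0%). Cox6a2 was at 0.302, 0.332, 0.400 and 0.111 CPM in males and 5.56, 2.64, 4.73 and 4.34 CPM in females (3.90 ± 0.42 on the log2 scale, edgeR adjusted p = 7.76e-07). Ndufa4l2 was at 96.1, 90.1, 96.4 and 90.5 CPM and 55.7, 51.3, 54.1 and 48.2 CPM (-0.83 ± 0.12, edgeR adjusted p = 2.80e-05), so both genes kept the order of the isotype mice. The complex I subunits Ndufa5, Ndufb2 and Ndufc2 were lower in females, with log2 changes of -0.58 ± 0.15, -0.52 ± 0.13 and -0.39 ± 0.12 (edgeR adjusted p = 0.00704, 0.00817 and 0.0189). Also among the 7 were Cox8b and Atp5mpl, a small protein of ATP synthase, and mt-Co1 changed by -0.53 ± 0.17 (edgeR adjusted p = 0.0344).

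Replicate 1 bears on this comparison too. The median of the nuclear members between the sexes was -0.18 with it and 0.00 without it, and the calls became 8 higher and 4 lower (10.2% and 10.5% of all genes). Cox6a2, Ndufa4l2, Ndufa5 and Ndufb2 were still called in the same direction. Ndufc2 (-0.24 ± 0.09, edgeR adjusted p = 0.0586), Cox8b (-0.94 ± 0.34, 0.0675) and mt-Co1 (-0.28 ± 0.12, 0.119) were not. The 8 nuclear genes higher in females without it were Atp5g3, Cox5a, Cox6a2, Cox6b1, Cox7c, Ndufa6, Ndufaf4 and Sdha. The 1 mitochondrial gene called without replicate 1 was mt-Nd3, higher in females at 0.72 ± 0.20 (edgeR adjusted p = 0.0187). With the length trend removed and all mice kept, 5 nuclear members were higher in females and 3 lower (11.3% and 10.1% of all genes), at a median of -0.02. Those higher were Atp5g3, Cox6a2, Ndufa6, Ndufaf8 and Ndufb11, those lower Ndufa4l2, Ndufa5 and Ndufb2, and mt-Nd3 was again the mitochondrial gene called, at 0.74 ± 0.25 (edgeR adjusted p = 0.0479). With the trend and replicate 1 both removed, 19 nuclear members were higher in females and 2 lower (11.4% and 9.97% of all genes), so the balance of directions in this comparison turned with each choice, alone or together.

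**Figure D5:**
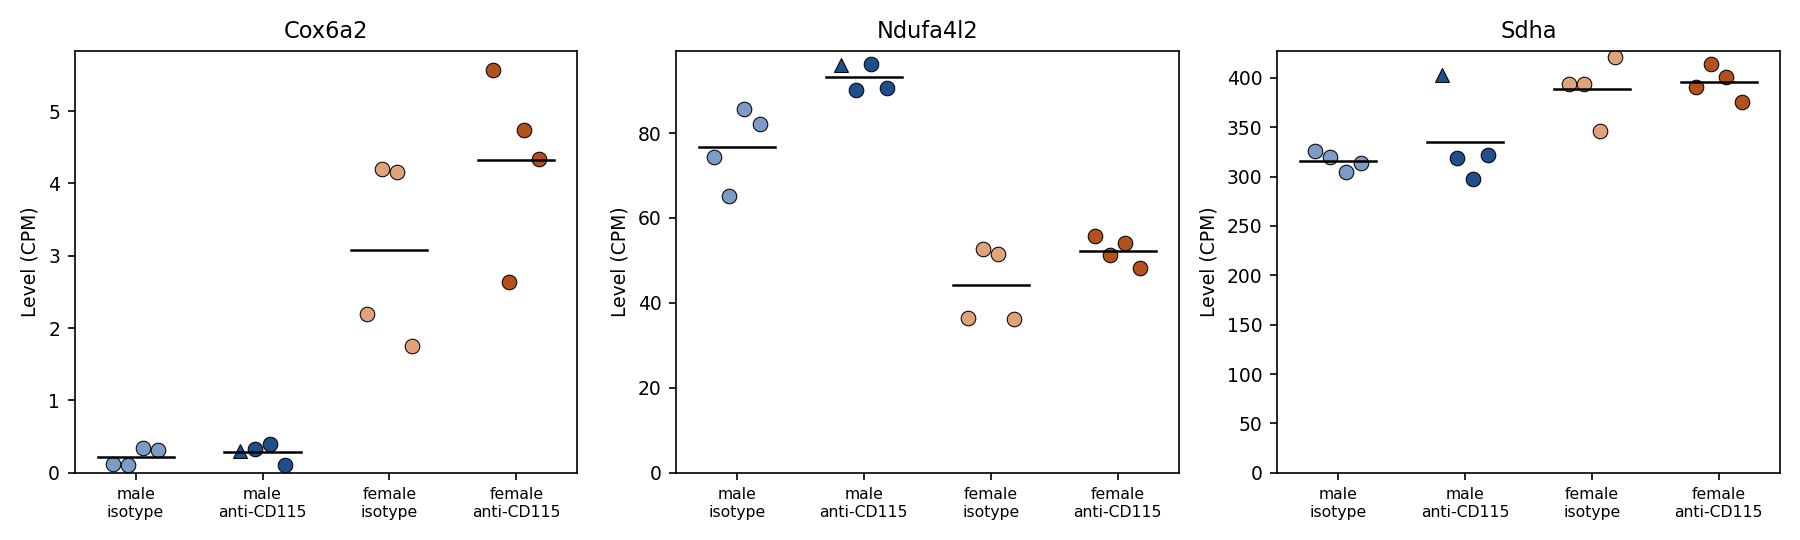
Levels of Cox6a2, Ndufa4l2 and Sdha in each mouse in CPM on axes from 0, with points for mice, a triangle for male anti-CD115 replicate 1 and a line for the group mean. Cox6a2 lies under 1 CPM in all males and from 1.75 CPM up in all females, whereas Ndufa4l2 is higher in males in both treatment groups.

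Other mitochondrial and housekeeping genes were followed in lists chosen by function. Of 77 tested proteins of the mitochondrial ribosome, which makes the 13 mitochondrial gene products, 7 rose in males and 0 fell (median 0.27, with 0 called in females and a median of 0.11), where 1.10% of all genes rose in males. Without replicate 1 the count was 3 at a median of 0.19, against 0.652% of all genes. The 7 were led by Mrps30 (0.37 ± 0.08, edgeR adjusted p = 0.00926), Mrps35 (0.49 ± 0.11, 0.0103) and Mrps6 (0.43 ± 0.10, 0.0130). Of 85 cytosolic ribosomal proteins 10 rose in males (median 0.31, and 0.18 with 0 called in females), led by Rpl22 (0.36 ± 0.07, edgeR adjusted p = 0.00583), and 1 at a median of 0.25 without replicate 1. Among 36 assembly factors of complexes II to V, Cox19 (0.70 ± 0.16, edgeR adjusted p = 0.0160) and Tmem70 (0.30 ± 0.08, 0.0275) rose in males, at a list median of 0.27, and 1 factor rose without replicate 1, at a median of 0.18. Of 18 tricarboxylic acid cycle genes 1 rose, Idh3b (0.36 ± 0.10, edgeR adjusted p = 0.0453), and of 18 core proteasome genes 1, Psma4 (0.38 ± 0.11, 0.0454), and without replicate 1 0 genes of either list were called, at medians of 0.11 and 0.15. Of 16 regulators of mitochondrial biogenesis 0 rose and 1 fell, Perm1, a muscle-enriched partner of the PGC-1 and ERR factors, at -1.43 ± 0.37 in males (edgeR adjusted p = 0.0343, with 3.06% of all genes called lower) and -1.17 ± 0.37 in females (0.185), and without replicate 1 at -1.70 ± 0.40 in males (edgeR adjusted p = 0.0206, with 2.57% of all genes called lower).

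The other lists of functions held no called gene in edgeR in either sex with all mice. Their median log2 differences in males and females were 0.24 and 0.05 for the 7 complex I assembly factors named otherwise than Ndufaf, 0.18 and 0.04 for 16 electron carriers and coenzyme Q genes, and 0.11 and 0.03 for 28 genes of mitochondrial DNA transcription, replication and RNA stability. They were 0.11 and 0.04 for 16 chaperone genes, 0.12 and 0.04 for 17 glycolytic genes, and 0.03 and 0.06 for 8 genes of mitochondrial steroid synthesis. Without replicate 1 the medians in males were 0.19, 0.08, 0.07, 0.13, 0.01 and 0.08 in the same order, and the glycolytic hexokinase Hk2 fell (-0.72 ± 0.16, edgeR adjusted p = 0.0122). The smallest p in males in these lists belonged to Foxred1 (0.34 ± 0.11), Etfb (0.69 ± 0.21), Fastkd5 (0.64 ± 0.20), Hspe1 (0.46 ± 0.14), Ldhb (0.45 ± 0.14) and Tspo (0.31 ± 0.09), with edgeR adjusted p of 0.0820, 0.0670, 0.0687, 0.0670, 0.0776 and 0.0673. Among markers of cell types, the median in males and females was 0.89 and -0.14 for 17 adipocyte genes, 0.04 and 0.11 for 11 cortex genes, -0.16 and -0.19 for 5 zona glomerulosa genes, and -0.23 and 0.14 for 8 medulla genes. Brown adipocyte genes had medians of 0.61 and -0.31 over 9 tested, with Prdm16 called in males (0.61 ± 0.16, edgeR adjusted p = 0.0318). Prdm16 did not follow Ucp1 among the treated males: it stood at 18.7 CPM in replicate 1, below 21.5, 23.6 and 23.8 CPM in the others. The median was 0.09 and -0.17 for 7 endothelial genes, with Emcn called in males (0.43 ± 0.12, edgeR adjusted p = 0.0390), and 0.36 and -0.35 for 6 red blood cell genes. Without replicate 1 the medians in males were 0.12 for the adipocyte genes, of which Cd36 fell (-0.64 ± 0.13, edgeR adjusted p = 0.00739), and 0.14 for the brown adipocyte genes. They were 0.05 for the cortex, -0.07 for the zona glomerulosa, -0.44 for the medulla, 0.13 for endothelial and 0.18 for red blood cell genes, and Prdm16 (0.66 ± 0.16, edgeR adjusted p = 0.0222) and Emcn (0.51 ± 0.11, edgeR adjusted p = 0.00793) were still called. The part of these cell types in the differences of the members was not tested beyond the adipocyte score.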

How the data were processed

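RNA was sequenced from both adrenal glands of each of 16 mice. Per the submitters' processing notes and the methods, the authors aligned reads with HISAT2 2.2.1 and counted reverse-stranded fragment pairs per gene with featureCounts 2.0.1, with FastQC 0.11.9 and SAMtools 1.3.1 also named. The deposited values are raw counts, one table per mouse, with an exonic length per gene. The file headers name a later Ensembl GRCm38 annotation than the methods. Fragments that aligned to several places or genes were not counted. Symbols were matched to 51633 of 51912 gene identifiers.

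Counts were tested with edgeR 4.0.16 in R 4.3.3 (quasi-likelihood, TMM, all 4 groups in one fit), after filterByExpr with a minimum count of 10 and a minimum total of 15. P-values were adjusted by Benjamini-Hochberg over all 16654 genes tested, at a threshold of 0.05. CPM were computed on TMM-scaled library sizes. The length trend was a lowess fit of span 0.3 per library. Alternatives used DESeq2 1.42.0, other filters and scalings, a replicate block, an adipocyte score as covariate (mean log2 CPM of the adipocyte and brown adipocyte markers), and libraries left out. Members and lists were chosen with earlier results of these data known. Named genes were the 13 mitochondrial ones, per comparison up to 5 called members per direction with the smallest p (or 3 where none was called), the highest of each complex per kb, the isoform pairs, up to 3 leading genes of each list, and markers. The further values by complex were of genes chosen after their values were seen. The result of 1 gene is not reported here. The labels give 1 mouse per library, and no libraries were identical. The SE of a log2 fold change was its absolute value divided by the square root of the F statistic of the edgeR test. The floor of 3 counts covers counting error only, whereas SE and SD include the spread between mice. Scripts were tested on simulated data.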

Additional observations from a re-analysis of the deposited data

Results flagged for a closer look

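Groups of 4 mice were screened for a mouse far from the other 3 by Dixon's gap criterion. Of 132 groups tested 17 held such a mouse, and 10 of the 17 were male anti-CD115 replicate 1. Chance flags about 1 in 20 groups when they are independent, but these share mice, sums share genes with the genes named, and some genes were named with this library in view, so the count cannot be read against that rate. In that mouse the nuclear sum was 17393 CPM, and the sums of complexes II, IV and V were 1038, 4327 and 4867 CPM. Its levels of Ndufc2, Ndufs4, Cox8b, Cox7a1, mt-Cytb and mt-Nd4 were 159, 56.8, 205.5, 40.8, 44952 and 24191 CPM. The summed adipocyte markers of this library stood above those of every other mouse, and their part in these levels was not tested beyond the adipocyte score.

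The other 7 lay in 5 libraries. Male isotype replicate 2 was low for the complex II sum (664 CPM), and male isotype replicate 3 was high for Cox7a2l (134 CPM) and Ndufs4 (33.1 CPM). Ndufv2 was high in male isotype replicate 4 at 123 CPM. In female isotype replicate 1 the complex IV sum was low at 1935 CPM and so was Cox4i1 at 233 CPM. Ndufb2 stood apart in male anti-CD115 replicate 2 at 14.7 CPM.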

How the results depend on the processing

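The count of 16 nuclear members called in males was 10 without a filter on low counts, 9 with at least 10 counts in every mouse, 0 with the males fitted alone, 32 with DESeq2, 2 with the length trend removed, 4 with the adipocyte score and 0 with the length trend and male anti-CD115 replicate 1 removed. The shares of all genes called higher were 0.517%, 1.02%, 0.234%, 2.58%, 0.654%, 1.12% and 0.527% in the same order, against 1.10%. Leaving out 1 mouse at a time gave 0 (male isotype replicate 2) to 41 (male anti-CD115 replicate 2). Averaged over the sexes the count of 14 became 9, 7, 24, 6, 8 and 6 under the same settings, except the fit by sex, and 2 (without female isotype replicate 1) to 30 (without male anti-CD115 replicate 2). The shares were 0.611%, 1.16%, 2.82%, 1.24%, 1.53%, 1.27%, 0.437% and 2.02%, against 1.53%. In females 1 nuclear member was called with females fitted alone and 1 with DESeq2 (0.120% and 0.228% of all genes), and leaving out mice gave 0 in each case. The cause of these shifts was not tested. Removing the length trend and replicate 1 together was chosen after seeing the data. Other scalings kept the counts within 1.5 times.

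Same-numbered mice of different groups did not deviate together (correlations from -0.13 to 0.12). Pairing by replicate number was thus not seen, but groups this small would not show a weak shared effect. With the replicate number as a block the count in males was 9 (0.925% of all genes higher), and with the block and the length trend removed 1 in males (0.588%) and 7 over the sexes (1.07%).

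For mitochondrial genes the count of 0 in females became 1 with females fitted alone (0.120% of all genes higher and 1.88% lower). It was 2 with the length trend and replicate 1 removed (0.142% and 1.90%). With mice left out it was 0 to 1, the 1 without male anti-CD115 replicate 1 (0.0770% and 1.94%). Over the sexes the count became 1 with DESeq2 (2.82% and 4.98%) and 1 with the trend and replicate 1 removed (1.27% and 3.42%). With mice left out it was 0 to 1, the 1 without male anti-CD115 replicate 2 (2.02% and 4.55%). The count of 1 between the sexes after anti-CD115 was mt-Co1, lower in females, with all mice, and mt-Nd3, higher in females, without replicate 1 or with the length trend removed. It was 0 without a filter, with the block and length trend, and with the adipocyte score, 2 with the trend and replicate 1 removed, and 0 to 1 with mice left out. Nuclear members that differed between the sexes numbered 3 to 14 under isotype and 4 to 12 after anti-CD115 with mice left out. Under isotype the count was 3 without male isotype replicate 2, among others (6.84% of all genes higher in females and 9.67% lower). It was 14 without male anti-CD115 replicate 1 (9.65% and 11.7%). After anti-CD115 it was 4 without female anti-CD115 replicate 3 (9.20% and 7.80%). It was 12 without male anti-CD115 replicate 1 (10.2% and 10.5%) or replicate 2 (11.2% and 9.45%). With the trend and replicate 1 removed, the counts were 18 (16 higher in females) and 21 (19 higher). There 10.8% of all genes were higher and 11.9% lower under isotype, and 11.4% and 9.97% after anti-CD115.

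Of 1192 repeats of the tests of named genes 1077 kept direction and call, 87 lost the call, 9 gained it and 19 changed sign. In males mt-Nd3 was -0.0077 with the block and length trend, -0.24 with the trend and replicate 1 removed, and -0.011 to 0.56 with mice left out. The values for mt-Cytb, mt-Nd1, mt-Nd2 and mt-Nd4 with the trend and replicate 1 removed were -0.15, -0.20, -0.15 and -0.13, and mice left out gave -0.018 to 0.50 for mt-Cytb, -0.035 to 0.46 for mt-Nd1 and -0.017 to 0.45 for mt-Nd4. For mt-Nd5 the values were -0.066, -0.085, -0.073 and -0.32 with the length trend removed, with the block too, with the adipocyte score and without replicate 1 too, and -0.23 to 0.20 with mice left out. Between the sexes after anti-CD115 Cox7a1 was 0.032 with the adipocyte score, 0.59 with the trend and replicate 1 removed, and -0.99 to 0.38 with mice left out. Leaving out male anti-CD115 replicate 1 gave the lowest of these values for the mitochondrial genes and the highest for Cox7a1. At this depth Cox6c2, Cox7b2, Cox8c and Ndufa11b could not be tested.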
